A study of Homo sapiens with 24 samples.

Results

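The response common to knockdown of 3 different genes was measured across 3 settings of the H1 human embryonic stem cell line, together with how far the settings differed. The members were all 18 H1 libraries of a series of 24, namely 9 knockdown and 9 nontargeting libraries, and every one of them entered each fit. RNA-seq of polyadenylated RNA was done on 6 groups of 3 libraries: CARHSP1 knockdown and nontargeting control in primed pluripotent cells, ZNF8 knockdown and nontargeting control in naive pluripotent cells, and ZIC2 knockdown and nontargeting control in cells on day 2 of ectoderm differentiation. The labels give doxycycline as the treatment of all 18, the controls included, and give no means of knockdown, clone number or statement that replicates were separate cultures, so p-values measure the spread between these libraries, which may be technical. Each gene was knocked down in 1 setting, so a difference between settings cannot be told apart from a difference between the genes knocked down. The controls of the 3 settings were separate libraries, so the 3 comparisons share no library.

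Primed pluripotent cells resemble the embryo's epiblast after implantation and naive cells the epiblast before it, while early ectoderm gives rise to the nervous system and the skin. CARHSP1 is an RNA-binding protein with a cold shock domain, ZNF8 is a zinc finger protein of the KRAB class, and ZIC2 is a zinc finger transcription factor of early neural development. Several transcription programmes respond to the state of a culture as well as to a lost gene. SRF with its actin-sensing MRTF partners drives contractile and cytoskeletal genes through the CArG box, ATF4 drives amino acid transport, synthesis and tRNA charging when the integrated stress response is active, and HIF factors drive glycolysis and mitochondrial clearance genes when oxygen sensing is inhibited.

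The libraries held 6756704 to 20773963 gene counts (median 11930229) and detected 20732 to 25392 genes. The first 2 principal components carried 70.6% and 19.4% of the variance and separated the 3 settings. The share of counts from mitochondrially encoded genes was 5.67% to 7.20% in primed and naive libraries and 1.68% to 2.43% in day 2 ectoderm. Summed naive markers stood at 1667 to 1714 counts per 1000000 of scaled library size (CPM) in naive controls. They were at 140.21 CPM or less in every primed and ectoderm library, and summed neural ectoderm markers were highest in day 2 ectoderm. Both of these lists follow the labelled settings. Summed primed pluripotency markers were at 2033 to 2125 CPM in naive libraries. They did not separate primed libraries (7051 to 7528 CPM) from day 2 ectoderm libraries (7329 to 7923 CPM). Markers of fibroblasts and smooth muscle, another cell type that shares contractile genes, summed to 627 to 675 CPM in CARHSP1 knockdown against 724 to 743 CPM in its controls, to 409 to 443 CPM against 310.5 to 320 CPM with ZNF8 knockdown, and to 361 to 386 CPM against 223 to 229.9 CPM with ZIC2 knockdown. Fewer cells of a type and less RNA per cell cannot be told apart in bulk RNA.

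The targeted genes were examined first. CARHSP1 was at 20.8, 18.1 and 18.4 CPM against 152, 148 and 148 in primed cells, a 7.81-fold lower level (adjusted p = 3.54e-29). ZIC2 was at 262, 263 and 272 CPM against 617, 548 and 495 in day 2 ectoderm, 2.08-fold lower (adjusted p = 4.76e-17). ZNF8 was at 15.3, 15.4 and 17.7 CPM against 23.2, 18.6 and 17.7 in naive cells, a log2 change of -0.31 ± 0.12 (SE) that did not pass the test (adjusted p = 0.0792). The libraries labelled ZNF8 knockdown were thus not separated from their controls in ZNF8 transcript beyond the test's threshold, and each direction given below for ZNF8 knockdown rests on that label. In primed cells with CARHSP1 knockdown ZNF8 had a log2 change of -0.30 ± 0.12 (adjusted p = 0.0907).

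Averaged over the 3 settings, with setting as a block, 922 of 17390 genes tested rose with knockdown (5.3% of genes) and 894 fell (5.14%) at an adjusted p under 0.05. Without the primed pair of groups 1813 rose and 1541 fell, and without the naive pair 608 and 565. The averaged effect is 1 knockdown term fitted with setting as a block, and it need not equal the mean of the 3 log2 changes. In that fit an effect that differs between settings adds to the spread, so its p-values do not measure the spread of replicates alone. Among genes of similar level in all 3 settings, that fit thereby favours those that move alike. A gene counted in only 1 setting can still pass it. KLF17, with 0 counts in primed and ectoderm libraries, passed the averaged test (adjusted p = 0.000263). Tested as the mean of the 3 changes it did not pass (adjusted p = 0.9998). Tested as the mean of the 3 changes, with only the spread within the 6 groups, 2187 genes rose and 1797 fell. In single settings 2258 genes passed with CARHSP1 knockdown in primed cells (13%; 6.76% higher and 6.22% lower), 3178 with ZNF8 knockdown in naive cells (18.3%; 9.02% and 9.26%) and 5117 with ZIC2 knockdown in day 2 ectoderm (29.4%; 16.1% and 13.3%). The primed count was 1276 without CARHSP1 knockdown replicate 2, 1356 without primed control replicate 1 and 1478 without primed control replicate 3. Genes that passed in every setting in 1 direction were few, with 93 higher (0.535%) and 75 lower (0.431%). They are called common genes here, and each of them also passed the averaged test. In 207 genes (1.19%) every knockdown library lay above every control of its setting in all 3 settings, and in 160 (0.92%) every one lay below. These included 86 of the 93 and 70 of the 75 common genes. In single settings the groups did not overlap in 31.8% of genes in primed cells, 34.6% in naive cells and 37.7% in ectoderm.

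Most genes of the averaged response passed in fewer than 3 settings, though a gene that does not pass in a setting may still change there. Of the 922 higher genes, 93 passed in 3 settings, 476 in 2, 314 in 1 and 39 in none, and 710 had a change of the same sign in all 3. Of the 894 lower genes the numbers were 75, 380, 381 and 58, with 682 of the same sign throughout. Among the averaged genes 10 higher and 9 lower ones passed in the opposite direction in some setting. The effect of knockdown differed between settings in 6048 genes (34.8%), and 1021 genes (5.87%) passed in opposite directions in a pair of settings.

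**Figure D1:**
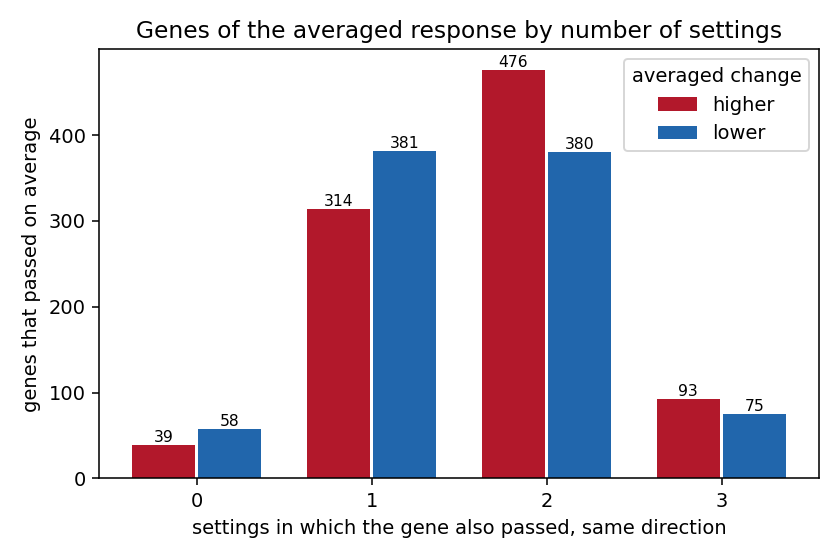
Bars give the number of genes (vertical axis) that passed the averaged test, higher in red and lower in blue, by the number of settings (horizontal axis) in which they also passed in the same direction. The 93 higher and 75 lower genes at the right are the common genes.

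Among the 3 pairs of settings, naive cells and ectoderm had the highest share of genes that moved alike, a difference between pairs that was not tested. Of 1500 genes that passed with both ZNF8 and ZIC2 knockdown, 76.5% moved in the same direction, 658 up and 489 down. The genes that rose with ZNF8 knockdown included 42.0% that also rose with ZIC2 knockdown, where 16.1% of all genes rose, and they were 23.4% of the latter. Of the 721 genes that passed with both CARHSP1 and ZNF8 knockdown 54.4% moved alike, and of the 1052 that passed with both CARHSP1 and ZIC2 knockdown 42.2% did. Across the 11743 genes with a mean of at least 5 CPM, the Spearman correlation of the log2 changes was 0.26 between naive and ectoderm, -0.05 between primed and naive, and -0.14 between primed and ectoderm, values across genes that share the libraries of each setting. The log2 changes also ran with GC content, with Spearman correlations of -0.29 in primed cells, 0.04 in naive cells and 0.30 in ectoderm. With GC and length trends removed, 59.2% of 979 genes passing in both primed cells and ectoderm moved alike and the correlation was 0.05, while the share for naive cells and ectoderm was 74.4%.

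**Figure D2:**
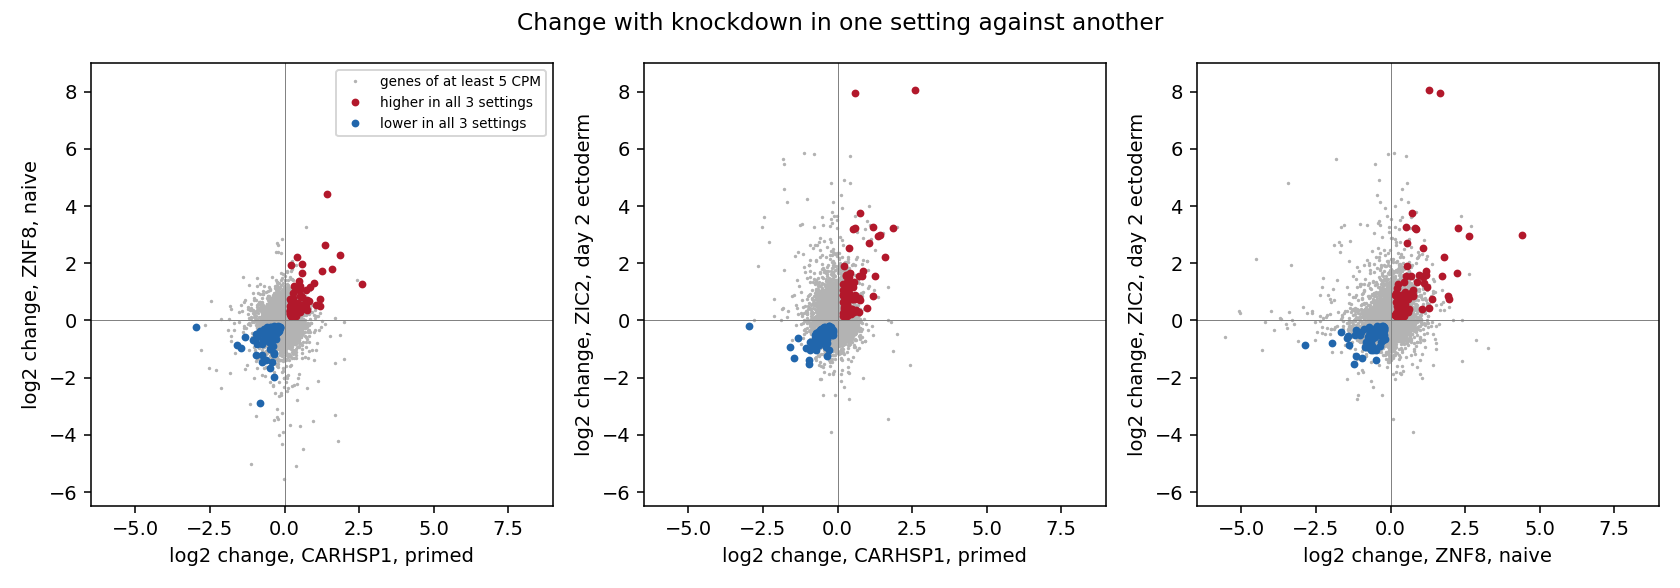
Each panel sets the log2 change with knockdown in one setting (horizontal axis) against that in another (vertical axis) for the 11743 genes of at least 5 CPM, with the 93 common higher genes in red and the 69 common lower genes of that level in blue. The grey cloud leans to the diagonal in the naive and ectoderm panel and not in the other panels, and the 2 red points near 8 on the ectoderm axis are ANXA1 and ACTA1, whose ectoderm controls held 2 and 1 counts.

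The common genes changed by modest amounts. The 93 higher genes had median log2 changes of 0.34 in primed cells, 0.48 in naive cells and 0.76 in ectoderm, and the 75 lower genes of -0.48, -0.57 and -0.50, while the median of all genes tested was 0.00 in each setting. A change of at least 2-fold in every setting was seen in 6 of the 93 and 5 of the 75, and of at least 1.5-fold in 13 and 16. Among the higher genes the change was largest in ectoderm for 55, in naive cells for 24 and in primed cells for 14. Its size differed between settings in 55 of the 93 and in 32 of the 75, against 34.8% of all genes tested. Leaving out any of the 18 libraries in turn, 43 of the 93 and 30 of the 75 stayed common throughout. Nearly all coded for proteins, 95.7% of the higher and 96.0% of the lower genes against 81.6% of all genes tested. The sets differ in level, since all 93 higher and 69 of the 75 lower genes had a mean of at least 5 CPM. Of the 17390 genes tested 11743 did, and no share matched for level was computed.

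**Figure D3:**
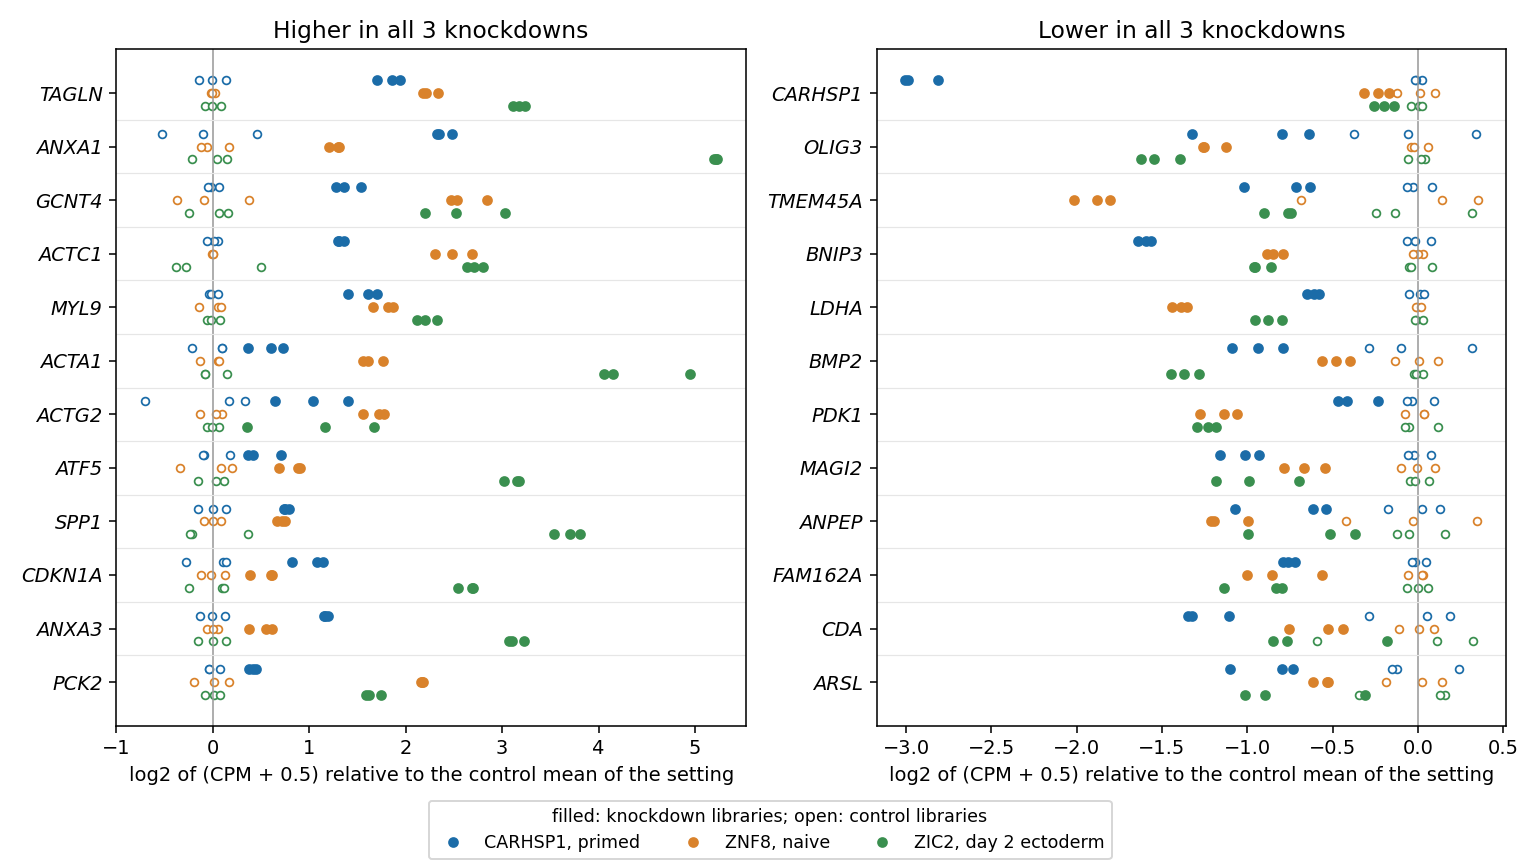
Each point is a library, with log2 of CPM plus 0.5 relative to the mean of the controls of its setting on the horizontal axis, for the 12 higher and 12 lower common genes of largest averaged change. Filled points are knockdown and open points control libraries. All filled points of the higher genes lie to the right of their controls, and those of the lower genes to the left, except in ectoderm for CDA and ARSL, where a knockdown and a control library overlap.

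Contractile and cytoskeletal genes led the common increase. TAGLN, which codes for the actin-binding protein transgelin (chr11:117199321-117204782 in GRCh38), had the largest averaged change of the common higher genes with a mean of at least 5 CPM. In primed cells TAGLN was at 161, 170.4 and 145 CPM against 43.8, 48.6 and 40, in naive cells at 89.6, 99.7 and 91.8 CPM against 19.7, 19.1 and 19.3, and in day 2 ectoderm at 115, 105 and 109.9 CPM against 11.1, 11.6 and 12.5. The groups did not overlap in any setting, and the log2 changes of 1.85 ± 0.08, 2.27 ± 0.09 and 3.22 ± 0.09 (SE) came with an averaged effect of 2.39 ± 0.13 (SE; adjusted p = 2.49e-11). MYL9, the regulatory light chain of smooth muscle and non-muscle myosin, was more even. In primed cells MYL9 was at 154, 144 and 125 CPM against 45.7, 46.4 and 48.8, in naive cells at 223, 232 and 200.1 CPM against 56.8, 65.3 and 66.5, and in day 2 ectoderm at 174, 164 and 189 CPM against 35.7, 36.9 and 39.5. Its averaged log2 change was 1.86 ± 0.08 (SE; adjusted p = 2.39e-13), with 1.58, 1.80 and 2.23 in the 3 settings. For both genes the knockdown libraries of all 3 settings came to within about a 2-fold range of each other, and the control levels differed more between settings for TAGLN than for MYL9.

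The muscle actins rose as well. ACTC1 codes for cardiac actin (chr15:34788095-34795726). In primed cells ACTC1 was at 23.8, 22.9 and 23.05 CPM against 9.34, 9.05 and 8.61, in naive cells at 26.6, 30.7 and 23.4 CPM against 4.32, 4.35 and 4.37, and in day 2 ectoderm at 18.4, 16.3 and 17.2 CPM against 1.73, 3.33 and 1.58. Its averaged log2 change was 2.22 ± 0.18 (SE; adjusted p = 1.72e-08). ACTG2 codes for the gamma actin of enteric smooth muscle. In primed cells ACTG2 was at 2.603, 4.73 and 3.56 CPM against 2.002, 1.73 and 0.717, in naive cells at 92.2, 95.7 and 82.2 CPM against 25, 29.5 and 28.1, and in day 2 ectoderm at 2.66, 4.02 and 1.32 CPM against 0.864, 0.978 and 0.913. Its averaged change of 1.59 ± 0.16 (SE; adjusted p = 5.04e-07) came with levels under 5 CPM in primed and ectoderm libraries, and its size was not found to differ between settings (adjusted p = 0.561). ACTA1 codes for skeletal muscle actin. In primed cells ACTA1 was at 28.7, 26.4 and 22.2 CPM against 18.3, 18.4 and 14.7, in naive cells at 77.99, 86.96 and 75.2 CPM against 23.1, 26.3 and 26.5, and in day 2 ectoderm at 15.8, 8.83 and 8.299 CPM against 0, 0 and 0.08299. All 3 ectoderm controls together held 1 count of ACTA1 against 364 in the knockdown libraries, a ratio of 320.2 with an exact 95% interval of 57.1 to 12682 that covers counting error only. Actin transcripts are close copies of each other and have processed pseudogenes, so the authors' counting may have split or shifted some of their reads.

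The CArG box to which SRF binds was looked for in the promoters of these genes, and the stretches that hold it are shown because 3 of the 12 largest increases were muscle actins. The motif searched was CC, then 6 bases that are each A or T, then GG, on both strands, in RefSeq windows from 250 bases before to 50 bases after the start of each gene (GRCh38.p14). The sequences read 5′ to 3′ on the gene's strand with the CArG box in capitals. ACTC1 (chr15:34795639-34795668, minus strand, box at position -109 from the RefSeq start, within a first exon of 1 longer GENCODE transcript), ACTG2 (chr2:73892858-73892966, plus strand, boxes at -110 and -73) and ACTA1 (chr1:229434099-229434244, minus strand, box at -97) read as follows.
ACTC1: gcgaaggggaCCAAATAAGGcaaggtggca
ACTG2: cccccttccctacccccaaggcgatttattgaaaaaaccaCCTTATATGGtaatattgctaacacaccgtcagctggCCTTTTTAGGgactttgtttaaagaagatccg
ACTA1: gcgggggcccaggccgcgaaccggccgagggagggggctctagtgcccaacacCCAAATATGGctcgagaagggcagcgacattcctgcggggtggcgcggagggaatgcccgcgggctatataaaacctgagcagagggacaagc
A CArG box was present in 8.1% (6 of 74) of the matched windows of common higher genes, in 0 of 55 of those of common lower genes, and in 1.1% (132 of 12189) of those of all genes tested. The sterol regulatory element, searched as TCACNCCAC, was in 0 of 74, 2 of 55 and 1.1% (137 of 12189). A match of letters is a description of the sequence and not a measured binding site.

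The actin and SRF list, which holds TAGLN and MYL9, moved with these genes. Of its 25 measured members 21 rose and 1 fell on average, with a median log2 change of 0.44 against 0.00 for all genes tested. Common members numbered 8, and the list's medians were 0.21 in primed cells, 0.51 in naive cells and 0.68 in ectoderm. In primed cells 9 members rose and none fell, against 20 and 1 in naive cells and 19 and 2 in ectoderm. Among all genes tested 5.3% rose and 5.14% fell on average, and 0.535% were common higher genes. By setting these shares were 6.76% and 6.22% in primed cells, 9.02% and 9.26% in naive cells, and 16.1% and 13.3% in ectoderm. The effect differed between settings in 20 of the 25, against 34.8% of all genes tested. The tropomyosin gene TPM1 rose by nearly the same amount in each setting, with log2 changes of 0.70 ± 0.05, 0.60 ± 0.06 and 0.73 ± 0.05 (SE). Caldesmon, CALD1, a regulator of actomyosin, changed by 0.73, 0.50 and 0.79. VCL, the focal adhesion protein vinculin, changed by 0.21, 0.15 and 0.88, CSRP1, a LIM domain protein of muscle, by 0.53, 1.21 and 1.16, and FLNC, the muscle filamin, by 0.29, 0.97 and 1.59. Without the ectoderm pair 17 of the 25 rose on average and none fell, with a median of 0.27.

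The summed fibroblast and smooth muscle markers given above ran with this group in naive cells and ectoderm and against it in primed cells. That list holds contractile genes itself (ACTA2, CNN1 and MYH11), so its sum is not separate from this group. THY1 is on it and on the primed pluripotency list, and LUM and FAP had 0 counts in all primed libraries. On average 3 of the list's 10 measured markers rose and 1 fell, where 5.3% of all genes tested rose and 5.14% fell. CNN1, smooth muscle calponin, had log2 changes of 0.28, 1.20 and 1.81 and passed in naive cells and ectoderm but not in primed cells. COL1A1, a collagen of fibroblasts, had -0.20, 0.71 and 1.08 and likewise passed in those settings. The part of such cells in the result was not tested.

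ANXA1 codes for annexin A1, which binds phospholipids in the presence of calcium (chr9:73151757-73170393). In primed cells ANXA1 was at 12.2, 13.6 and 12.4 CPM against 2.97, 1.86 and 1.26, in naive cells at 86.9, 81.3 and 87.6 CPM against 39.3, 33.7 and 32.2, and in day 2 ectoderm at 21.3, 21.1 and 20.8 CPM against 0.144, 0.0978 and 0. No setting had overlapping groups. The ectoderm controls held 2 counts in all against 701 in the knockdown libraries, a ratio of 308 with an exact 95% interval of 85.0 to 2551. ANXA3, another annexin, was low in control ectoderm as well. In primed cells ANXA3 was at 47.4, 47.1 and 48.6 CPM against 19.1, 20.9 and 22.9, in naive cells at 125, 105 and 119 CPM against 78.1, 84.6 and 81.1, and in day 2 ectoderm at 51.6, 50.7 and 56.6 CPM against 6.19, 5.57 and 4.98. On average the log2 change was 1.43 ± 0.24 (SE; adjusted p = 0.000354). Of 14 measured annexin and S100 genes 6 rose and 4 fell on average, and 4 were common higher genes, which also include ANXA2 (0.40, 0.17 and 0.95 in the 3 settings) and its partner S100A10 (0.31, 0.45 and 1.35). Among all genes tested 5.3% rose and 5.14% fell on average, and 0.535% were common higher genes.

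SPP1 codes for osteopontin, a secreted integrin ligand. In primed cells SPP1 was at 109, 114 and 110.2 CPM against 71.8, 58.8 and 65.2, in naive cells at 1195, 1151 and 1218 CPM against 772, 727 and 684, and in day 2 ectoderm at 109, 122 and 131 CPM against 7.63, 11.6 and 7.47. The levels in naive cells exceeded those of the other settings by far, yet the log2 change there was 0.71 against 3.75 in ectoderm. GCNT4, a glycosyltransferase that branches O-glycans, was near 0 in naive controls. In primed cells GCNT4 was at 26.2, 27.8 and 31.4 CPM against 11.05, 10.4 and 10.1, in naive cells at 3.24, 3.08 and 4.14 CPM against 0.339, 0 and 0.106, and in day 2 ectoderm at 7.72, 9.798 and 14.2 CPM against 1.01, 1.37 and 1.49. Its averaged log2 change was 2.25 ± 0.25 (SE; adjusted p = 3.69e-06). Over all genes tested 5.3% rose and 5.14% fell on average. The shares were 6.76% and 6.22% in primed cells, 9.02% and 9.26% in naive cells, and 16.1% and 13.3% in ectoderm. Of 22 matrix and adhesion genes 10 rose and 1 fell on average, and without the ectoderm pair 3 rose and 1 fell. In primed cells 5 rose and 4 fell, with a median of 0.02, against 13 and 4 in naive cells and 14 and 2 in ectoderm. Members that rose in all settings were SPARC (0.27, 0.34 and 0.62) and the integrin ITGB1 (0.21, 0.20 and 0.15). Among 17 YAP and TEAD target genes 5 rose and none fell on average, and 12 rose and 1 fell in ectoderm. CCN1, a matricellular protein, changed by 0.27, 0.51 and 1.55, and PTPN14, a phosphatase that restrains YAP, by 0.28, 0.18 and 0.66. PTPN14 and ITGB1 each stayed common in 13 of 18 fits that left out a library. PTPN14 was not common with DESeq2 or RLE scaling, nor ITGB1 with each pair fitted alone. CCN2, a close relative of CCN1, had log2 changes of 1.12, 0.16 and 2.84 that did not pass in naive cells (adjusted p = 0.145).

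Amino acid genes of the ATF4 programme were the other large block of common increases. Of 29 measured genes on this list 23 rose and 1 fell on average, with a median log2 change of 0.58, and 10 were common. In primed cells 14 of the 29 rose and 1 fell, against 18 and 1 in naive cells and 26 and 1 in ectoderm. Among all genes tested 5.3% rose and 5.14% fell on average, and 0.535% were common higher genes. By setting these shares were 6.76% and 6.22% in primed cells, 9.02% and 9.26% in naive cells, and 16.1% and 13.3% in ectoderm. The effect differed between settings in 27 of the 29, against 34.8% of all genes tested. The medians were 0.19 in primed cells, 0.49 in naive cells and 1.11 in ectoderm, so the list's change in ectoderm was the largest of the 3. ATF5, a transcription factor related to ATF4 and itself induced in the stress response, showed this order. In primed cells ATF5 was at 11.4, 14.02 and 10.9 CPM against 7.86, 9.58 and 7.802, in naive cells at 15.7, 18.4 and 18.01 CPM against 10.2, 7.47 and 11.1, and in day 2 ectoderm at 88.8, 81.2 and 90.5 CPM against 10.4, 8.51 and 9.79. PCK2, the mitochondrial enzyme that makes phosphoenolpyruvate, had its largest change in naive cells. In primed cells PCK2 was at 92.3, 89.8 and 94.5 CPM against 67.2, 73.04 and 67.3, in naive cells at 49.3, 49.7 and 48.9 CPM against 11.9, 9.13 and 10.6, and in day 2 ectoderm at 166, 151 and 148 CPM against 49.4, 46.2 and 51.5. The averaged log2 changes were 1.57 ± 0.27 (SE; adjusted p = 0.000618) for ATF5 and 1.37 ± 0.17 (SE; adjusted p = 1.11e-05) for PCK2. PCK2 overlaps other annotated genes, and whether strand was used in counting is unknown here, so some of its counts are uncertain.

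Transport, serine and one-carbon genes belonged to the same block. PSAT1, an enzyme of serine synthesis, had log2 changes of 0.52 ± 0.05, 1.11 ± 0.05 and 1.33 ± 0.05 (SE). SLC7A5 and SLC7A1, which import large neutral and cationic amino acids, changed by 0.38, 1.10 and 2.52 and by 0.23, 1.92 and 0.85. SLC1A5, a glutamine transporter, changed by 0.19, 0.76 and 1.08. The mitochondrial folate enzymes MTHFD2 and MTHFD1L changed by 0.21, 0.21 and 0.82 and by 0.29, 0.55 and 0.87. STC2, a secreted glycoprotein of the stress response, changed by 0.37, 1.08 and 1.53, and XPOT, the exporter of tRNA from the nucleus, by 0.25, 0.48 and 0.71. The tRNA synthetases were added as a complete family after their values had been seen. Of the 20 cytosolic ones 13 rose and 1 fell on average, and 7 were common, namely GARS1, WARS1, YARS1, MARS1, CARS1, NARS1 and EPRS1. Among all genes tested 5.3% rose and 5.14% fell on average, and 0.535% were common higher genes. GARS1, which charges glycine tRNA, had log2 changes of 0.35 ± 0.05, 0.49 ± 0.05 and 1.00 ± 0.05 (SE), and EPRS1, for glutamate and proline, of 0.20 ± 0.05, 0.25 ± 0.05 and 0.40 ± 0.05.

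The core of the amino acid response element bound by ATF4 was looked for as TTGCATCA on both strands. It was in 6.8% (5 of 74) of common higher windows, in 0 of 55 common lower windows and in 0.5% (61 of 12189) of all windows of tested genes. The 5 genes were BCAT1, NARS1, MARS1, MTHFD1L and CARS1, each an amino acid, tRNA or folate gene. Those of CARS1 (chr11:3057414-3057436, minus strand, match from position -2) and MARS1 (chr12:57488053-57488077, plus strand, match from -4) are shown because the match lies at the RefSeq start in both.
CARS1: cggggcggcggTTGCATCAgatt
MARS1: gccggttccggTTGCATCAgcgagg
These stretches are also exonic in some GENCODE transcripts. BCAT1 stayed common in 7 of 18 fits that left out a library, and was not common with DESeq2 or RLE scaling.

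Genes of the p53 and NRF2 programmes rose in part. CDKN1A, the p53 target that inhibits cyclin-dependent kinases, was a common gene. In primed cells CDKN1A was at 24.04, 20.01 and 25.2 CPM against 12.01, 9.05 and 12.3, in naive cells at 15.4, 18.1 and 18.01 CPM against 10.7, 12.8 and 11.5, and in day 2 ectoderm at 64.05, 64.6 and 57.8 CPM against 10.2, 7.92 and 10.4. The averaged change was 1.43 ± 0.21 (SE; adjusted p = 0.0001303) on the log2 scale. Of 23 measured p53 targets 15 rose and none fell on average, but the list's medians were 0.43 in primed cells, -0.01 in naive cells and 0.85 in ectoderm, and in naive cells 2 rose and 4 fell. RRM2B, a ribonucleotide reductase subunit, was the other common member, with 0.53, 0.31 and 0.76. Without the ectoderm pair 6 of the 23 rose on average. Of 15 measured NRF2 targets 6 rose and none fell on average, with 5 that rose and 2 that fell in primed cells. Over all genes tested 5.3% rose and 5.14% fell on average. The shares were 6.76% and 6.22% in primed cells and 9.02% and 9.26% in naive cells. NQO1, a quinone reductase, changed by 0.87 ± 0.09, 1.18 ± 0.09 and 1.73 ± 0.12 (SE), GCLM, a subunit of the glutathione synthesis enzyme, by 0.60, 0.42 and 0.90, and ME1, malic enzyme, by 0.53, 0.87 and 1.36.

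Glycolysis and hypoxia genes led the common decrease. Of 24 measured genes on this list 15 fell and 2 rose on average, with a median log2 change of -0.35, and 6 were common. Among all genes tested 5.14% fell and 5.3% rose on average, and 0.431% were common lower genes. LDHA codes for the lactate dehydrogenase subunit that favours lactate production (chr11:18394388-18408425). In primed cells LDHA was at 627, 646 and 657 CPM against 993, 948 and 1009, in naive cells at 325, 312 and 333 CPM against 847, 844 and 859.8, and in day 2 ectoderm at 321, 339.6 and 305 CPM against 585, 601 and 583. The groups lay apart in each setting, with log2 changes of -0.61 ± 0.05, -1.39 ± 0.05 and -0.87 ± 0.05 (SE). BNIP3, a mitochondrial protein of mitophagy (chr10:131966455-131982013), fell most in primed cells. In primed cells BNIP3 was at 48.9, 46.5 and 48.03 CPM against 139.8, 154 and 144, in naive cells at 114, 109.99 and 107 CPM against 202, 198 and 194, and in day 2 ectoderm at 46.9, 46.7 and 49.9 CPM against 87.97, 96.7 and 88.6. Its averaged log2 change was -1.12 ± 0.08 (SE; adjusted p = 4.75e-09). PDK1, the kinase that inactivates pyruvate dehydrogenase, fell less in primed cells than in the others. In primed cells PDK1 was at 40.05, 41.5 and 47.2 CPM against 54.1, 53.1 and 59.4, in naive cells at 26.1, 22.4 and 24.8 CPM against 56.6, 56.5 and 52.2, and in day 2 ectoderm at 35.01, 37.8 and 36.6 CPM against 83.7, 82.2 and 94.03. FAM162A, a mitochondrial protein that HIF1 induces, fell in each setting. In primed cells FAM162A was at 36.5, 37.5 and 35.8 CPM against 61.5, 64.4 and 60.9, in naive cells at 24.3, 26.96 and 33.1 CPM against 50.2, 47.3 and 49.9, and in day 2 ectoderm at 26.3, 32.5 and 33.3 CPM against 58.5, 55.7 and 60.7. Its log2 changes were -0.77 ± 0.09, -0.82 ± 0.10 and -0.93 ± 0.10 (SE), and no difference between settings was found (adjusted p = 0.615).

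The list did not fall as a whole in ectoderm. Its medians were -0.39 in primed cells, -0.43 in naive cells and -0.01 in ectoderm, where 7 members rose and 7 fell, against 22 that fell and none that rose in primed cells. Among all genes tested 16.1% rose and 13.3% fell in ectoderm, and 6.76% rose and 6.22% fell in primed cells. PGK1, phosphoglycerate kinase, nonetheless fell most in ectoderm, with -0.71, -0.48 and -1.02. BNIP3L, a relative of BNIP3, changed by -0.51, -0.76 and -0.58, and the glycolytic genes PGAM1 and TPI1 by -0.28, -0.47 and -0.18 and by -0.24, -0.34 and -0.22. NDUFA4L2, a hypoxia-induced mitochondrial protein below the 5 CPM mean set for named genes, had the lowest averaged log2 change of the common genes, -2.58 ± 0.39, and was picked out after its values had been seen. It stayed common in 4 of 18 fits that left out a library, and was not common with DESeq2, with the replicate block, without the low-count filter or with each pair fitted alone. LDHA, PGK1, PGAM1, TPI1 and BNIP3 have processed pseudogenes of near-identical sequence, so their counts are uncertain where reads were shared.

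The core of the hypoxia response element, ACGTG on both strands, was in 40.0% (22 of 55) of common lower windows, in 28.4% (21 of 74) of common higher windows and in 25.6% (3125 of 12189) of windows of tested genes. On the glycolysis and hypoxia list it was in 10 of 20. CACGTG is its own reverse complement and holds the core on both strands. Stretches of LDHA (chr11:18394343-18394387, plus strand), PGK1 (chrX:78104028-78104173, plus strand) and BNIP3 (chr10:131982014-131982103, minus strand) are shown for this motif, with matched letters in capitals.
LDHA: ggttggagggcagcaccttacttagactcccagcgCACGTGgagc
PGK1: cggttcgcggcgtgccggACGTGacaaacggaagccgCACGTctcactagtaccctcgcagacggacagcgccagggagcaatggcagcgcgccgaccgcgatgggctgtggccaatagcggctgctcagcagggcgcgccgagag
BNIP3: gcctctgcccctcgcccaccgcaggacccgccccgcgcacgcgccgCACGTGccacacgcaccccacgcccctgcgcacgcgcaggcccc
The LDHA stretch begins 220 bases before the RefSeq start, and its window holds further matches nearer the start.

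OLIG3, a basic helix-loop-helix factor of the dorsal neural tube (chr6:137492202-137494250), was lower in every setting. In primed cells OLIG3 was at 2.14, 1.34 and 2.46 CPM against 3.93, 5.32 and 3.05, in naive cells at 27.3, 24.8 and 24.9 CPM against 58.6, 59.2 and 62.8, and in day 2 ectoderm at 33.1, 31.3 and 36.7 CPM against 100.4, 98.7 and 93.6. Its averaged log2 change was -1.32 ± 0.09 (SE; adjusted p = 1.40e-09), and the difference between settings did not pass (adjusted p = 0.0599). BMP2, a ligand of the bone morphogenetic protein family, fell most in ectoderm. In primed cells BMP2 was at 2.83, 2.501 and 3.195 CPM against 4.75, 7.45 and 5.47, in naive cells at 26, 27.5 and 24.5 CPM against 36.5, 39.5 and 33.1, and in day 2 ectoderm at 43.4, 45.7 and 48.6 CPM against 117, 122 and 118. ID2, an inhibitor of helix-loop-helix factors induced by BMP signalling, changed by -0.57 ± 0.09, -0.70 ± 0.09 and -0.79 ± 0.09 (SE). The other 11 of the 13 measured BMP and ID genes were not common, and the list had 1 higher and 2 lower genes on average, with 5 that rose and 2 that fell in ectoderm. Over all genes tested 5.3% rose and 5.14% fell on average, and 16.1% rose and 13.3% fell in ectoderm. SOX2, a core pluripotency and neural factor, changed by -0.35 ± 0.06, -0.24 ± 0.06 and -0.50 ± 0.06, and SOX11, a neural SOX factor, by -0.23, -0.21 and -0.26. SOX11 stayed common in 11 of 18 fits that left out a library, and was not common without the low-count filter. Of 17 measured core pluripotency genes 6 fell on average, none rose, and SOX2 was the common one, while in ectoderm 4 rose and 4 fell. SOX3, a neural SOX factor, went the other way, with an averaged effect of 0.82 ± 0.14 (SE; adjusted p = 0.000624). Of 18 measured neural ectoderm genes, with SOX3 among them, 7 fell and 2 rose on average. In ectoderm 9 of these fell and 4 rose, with a median of -0.57.

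The other named genes that fell had no single role. CARHSP1 itself was a common lower gene. In primed cells CARHSP1 was at 20.8, 18.1 and 18.4 CPM against 152, 148 and 148, in naive cells at 116, 121 and 109 CPM against 125, 146 and 137, and in day 2 ectoderm at 180.02, 166 and 173 CPM against 194, 200.01 and 202. In the naive and ectoderm libraries, where ZNF8 and ZIC2 were the targets, its log2 changes were -0.24 ± 0.06 (SE; adjusted p = 0.00523) and -0.20 ± 0.06 (adjusted p = 0.011). MAGI2 codes for a membrane scaffold protein. In primed cells MAGI2 was at 25.6, 23.05 and 27.1 CPM against 51.4, 50.02 and 55.1, in naive cells at 13.3, 14.6 and 12.2 CPM against 20, 23.03 and 21.4, and in day 2 ectoderm at 19.7, 15.98 and 13.9 CPM against 31.1, 33.6 and 31.8. It was 1.87-fold lower on average, and the difference between settings did not pass (adjusted p = 0.171). TMEM45A, a transmembrane protein, was at 0.304, 0.385 and 0.431 CPM against 1.53, 3.65 and 3.09 in naive cells and changed by -0.82, -2.88 and -0.86. ANPEP, the surface aminopeptidase CD13, changed by -0.76 ± 0.21, -1.47 ± 0.32 and -0.63 ± 0.21.

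A pair of the named lower genes overlapped in ectoderm. CDA, cytidine deaminase, was at 3.68, 3.45 and 5.77 CPM against 7.199, 8.41 and 4.23 there, so the third knockdown library lay above a control. ARSL, an arylsulfatase of the Golgi, was at 0.551, 0.643 and 1.21 CPM against 1.87, 1.17 and 1.83, also with overlap. Their ectoderm log2 changes were -0.61 ± 0.22 (SE; adjusted p = 0.0327) and -1.03 ± 0.37 (adjusted p = 0.0332). ARSL stayed common in 9 of 18 fits that left out a library and CDA in 14 of 18.

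Some common genes changed by almost the same amount whichever gene was knocked down. RESF1, a protein linked to silencing of retroelements, had the most even effect. In primed cells RESF1 was at 163, 156 and 171 CPM against 204, 210.1 and 209.6, in naive cells at 197, 183 and 201 CPM against 259, 242 and 246, and in day 2 ectoderm at 147, 148 and 143 CPM against 191, 179.96 and 183. Its log2 changes were -0.35 ± 0.05, -0.36 ± 0.05 and -0.34 ± 0.06 (SE). CLIP3, a microtubule-associated protein, had -0.68 ± 0.12, -0.67 ± 0.16 and -0.80 ± 0.10, and CAMLG, a protein of tail-anchored protein insertion, -0.41 ± 0.09, -0.38 ± 0.09 and -0.45 ± 0.09. SH3D19, an adaptor protein, rose by 0.33 ± 0.07, 0.30 ± 0.08 and 0.29 ± 0.08, and AK7, an adenylate kinase of cilia, fell with -0.51 ± 0.17, -0.57 ± 0.19 and -0.55 ± 0.17. AK7 stayed common in 9 of 18 fits that left out a library, and was not common with the replicate block or without the low-count filter. The genes of this group were chosen for their evenness, so the likeness itself is a description.

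Other lists split between settings. Of 23 sterol synthesis genes 16 fell and 2 rose with CARHSP1 knockdown, 17 rose and 1 fell with ZNF8 knockdown, and 6 rose and 7 fell with ZIC2 knockdown, with medians of -0.60, 0.47 and -0.01. The effect differed between settings in 20 of the 23, as it did in 20 of the 25 actin and 27 of the 29 ATF4 genes. Among all genes tested it differed in 34.8%. ACAT2, which makes acetoacetyl-CoA, was the member that rose in all 3, with 0.55, 0.47 and 0.29. Of 17 naive pluripotency genes 12 fell on average, where 5.14% of all genes tested fell, and their median was -1.35. In primed cells 8 fell and none rose (median -1.03), in naive cells 14 fell and none rose (median -1.73), and in ectoderm 4 rose and none fell. Without the naive pair 1 of the 11 still measured fell on average. KLF17, a naive transcription factor with 0 counts in primed and ectoderm libraries, had an averaged effect of -2.75 and a change of -2.81 in naive cells, and it did not pass as the mean of the 3 changes (adjusted p = 0.9998). Of 19 FGF and ERK feedback genes 12 rose and 1 fell in ectoderm, 3 rose and 6 fell in naive cells, and 1 rose and 4 fell in primed cells, with medians of 0.63, -0.21 and -0.10. Over all genes tested 16.1% rose and 13.3% fell in ectoderm. The shares were 9.02% and 9.26% in naive cells and 6.76% and 6.22% in primed cells.

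**Figure D4:**
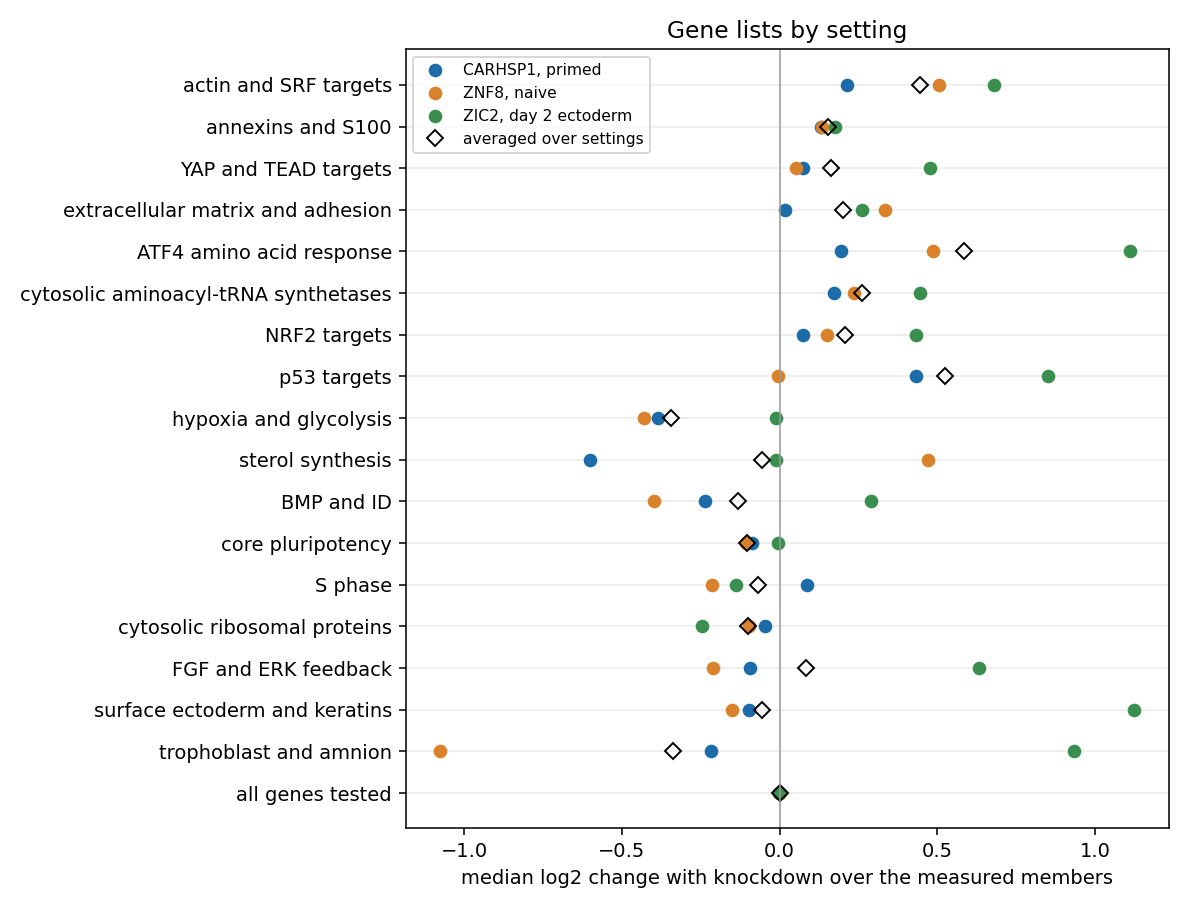
Points give the median log2 change with knockdown (horizontal axis) over the measured members of each gene list in the 3 settings, and open diamonds that of the averaged effect. The actin and ATF4 lists lie above 0 in all settings, the sterol list lies at -0.60 in primed and 0.47 in naive cells, and all genes tested lie at 0.00.

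Translation and mitochondrial lists also differed by setting. Over all genes tested 5.3% rose and 5.14% fell on average. The shares were 6.76% and 6.22% in primed cells, 9.02% and 9.26% in naive cells, and 16.1% and 13.3% in ectoderm. Of 34 cytosolic ribosomal protein genes 11 fell and none rose on average, with a median of -0.10. In ectoderm 22 fell and 4 rose, with a median of -0.25, against 12 and none in naive cells and 3 and 1 in primed cells. The effect differed between settings in 25 of the 34, against 34.8% of all genes tested. Of 13 mitochondrially encoded genes 5 rose and 1 fell on average. In naive cells 8 rose and none fell, with a median of 0.34, in primed cells 6 rose and 3 fell, and in ectoderm 3 rose and 5 fell. Among them MT-ATP6, MT-ATP8 and MT-ND3 were common, while MT-CO1 fell on average and had log2 changes of -0.19, -0.05 and -0.70. MT-ATP8 and MT-ND3 stayed common in 13 and 12 of 18 fits that left out a library. Neither was common with DESeq2 or with each pair fitted alone, nor was MT-ND3 with RLE scaling. The mitochondrial share of counts was 6.32% to 7.20% with ZNF8 knockdown against 5.67% to 6.22% in naive controls, with no overlap. It was 5.74% to 6.45% with CARHSP1 knockdown against 5.82% to 6.09% in primed controls, and 1.68% to 2.12% with ZIC2 knockdown against 2.00% to 2.43% in ectoderm controls, and both of these pairs overlapped. Its part in these values was not tested. Nuclear copies of mitochondrial sequence make single mitochondrial values uncertain.

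Cell cycle lists split as well. Of 23 S phase genes 4 fell and none rose on average. In naive cells 12 fell and none rose, in ectoderm 8 fell and 1 rose, and in primed cells 5 rose and 1 fell. Of 21 mitosis genes 3 fell and none rose on average, while 4 rose in primed cells, 5 fell in naive cells, and 8 fell and 1 rose in ectoderm. Endoplasmic reticulum chaperones rose on average in 3 of 20 cases and in ectoderm in 9, where 1 fell. Over all genes tested 5.3% rose and 5.14% fell on average. In primed cells 6.76% rose and 6.22% fell, against 9.02% and 9.26% in naive cells and 16.1% and 13.3% in ectoderm.

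Among genes that passed in opposite directions, 5 had the smallest adjusted p for a difference between settings. TDGF1, the Nodal co-receptor Cripto (chr3:46574534-46582463), was higher with CARHSP1 and ZIC2 knockdown and lower with ZNF8 knockdown. In primed cells TDGF1 was at 997, 1044 and 1089.7 CPM against 923, 870.3 and 886, in naive cells at 731, 742 and 797 CPM against 1026, 964 and 948, and in day 2 ectoderm at 172, 208 and 196 CPM against 7.49, 5.28 and 6.72. The log2 changes were 0.22 ± 0.06, -0.37 ± 0.06 and 4.90 ± 0.09 (SE), and the averaged effect of the block fit, 1.02 ± 0.47, did not pass (adjusted p = 0.1796). The mean of the 3 changes was 1.59 and did pass (adjusted p = 1.51e-28). PKDCC, a secreted protein kinase, was nearly lost from naive cells with ZNF8 knockdown. In primed cells PKDCC was at 22.2, 18.1 and 19.8 CPM against 15.3, 15.2 and 15.8, in naive cells at 2.28, 1.69 and 3.27 CPM against 75.3, 84.4 and 82.9, and in day 2 ectoderm at 799.7, 720.03 and 734 CPM against 628, 582 and 582. SERPINB9, an inhibitor of granzyme B, fell in primed cells and rose in the other settings. In primed cells SERPINB9 was at 121, 131 and 128 CPM against 248, 258 and 258, in naive cells at 4767, 4783 and 4755 CPM against 3765, 3753 and 3771, and in day 2 ectoderm at 22.3, 27.8 and 14.1 CPM against 1.44, 0.782 and 1.24. Its control level ranged over more than 3 orders of magnitude between ectoderm and naive cells.

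FZD7, a WNT receptor, fell in naive cells and rose in ectoderm. In primed cells FZD7 was at 169, 169 and 164 CPM against 161, 152 and 150.3, in naive cells at 7.85, 8.703 and 7.58 CPM against 28.8, 26.6 and 34.5, and in day 2 ectoderm at 709.97, 633 and 617 CPM against 411, 377 and 417. Its primed change of 0.11 ± 0.06 (SE) did not pass (adjusted p = 0.256). PDLIM1, a PDZ and LIM domain protein of actin fibres, fell in primed cells and rose in ectoderm. In primed cells PDLIM1 was at 284, 287 and 281 CPM against 347, 355 and 344, in naive cells at 528, 533 and 546 CPM against 527, 526 and 523, and in day 2 ectoderm at 274, 294 and 293 CPM against 129, 129 and 129. Its naive change of 0.03 ± 0.05 did not pass (adjusted p = 0.747). None of these 5 genes passed the averaged test with setting as a block. As the mean of the 3 changes all 5 passed, with adjusted p = 1.51e-28 for TDGF1, 8.76e-23 for PKDCC, 1.26e-14 for SERPINB9, 4.50e-08 for FZD7 and 3.66e-11 for PDLIM1. TDGF1 has near-identical pseudogenes, which adds uncertainty to its counts.

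**Figure D5:**
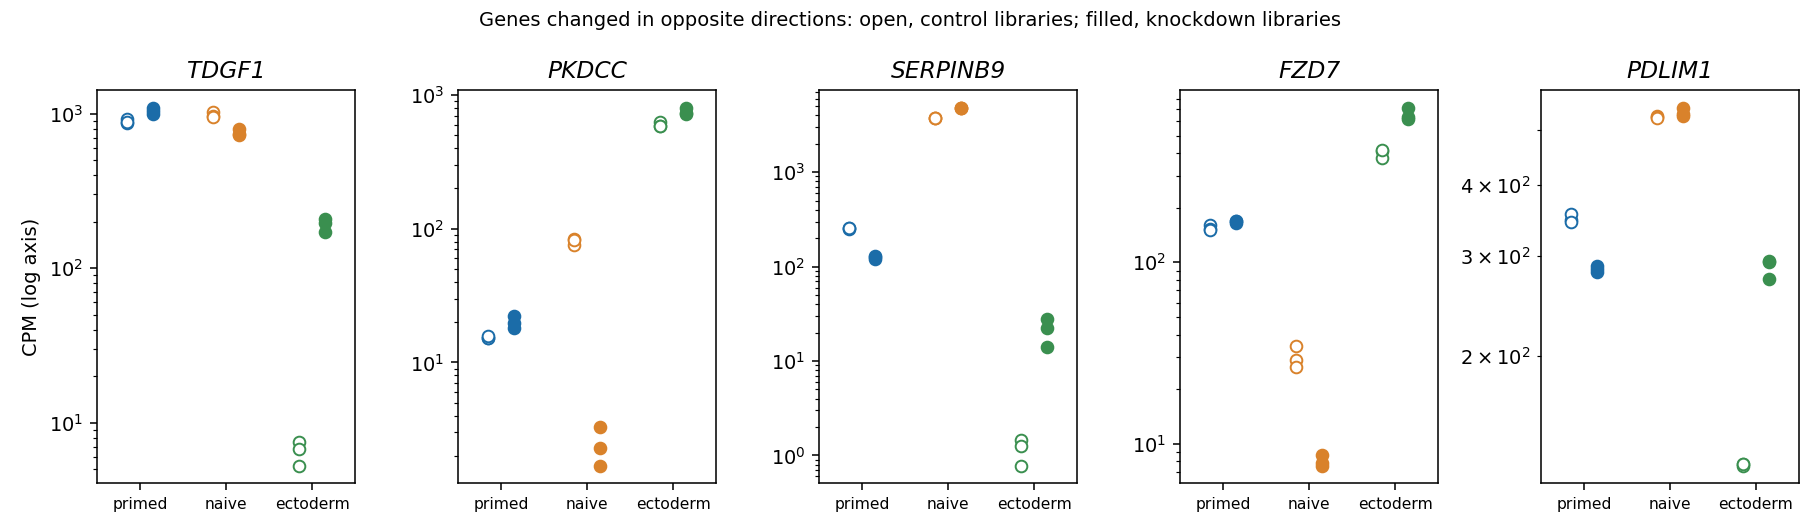
CPM on a log axis (vertical) for the 5 genes of opposite change, by setting (horizontal axis), with open points for the 3 control and filled points for the 3 knockdown libraries. In each gene the filled points lie above the open ones in one setting and below them in another, as for SERPINB9 in naive and primed cells.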

How the data were processed

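Libraries of polyadenylated RNA came from a stranded mRNA kit, per the labels' protocols. Reads were aligned with HISAT2 to GRCh38, per the submitters' processing notes. The aligner's version, and the counter, its annotation and whether it used strand, were not given in the sources used here. Raw counts for each gene were deposited by the authors, with no normalization, and 27 further count columns that match no described sample were left out.

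Counts were fitted with edgeR 4.0.16 in R 4.3.3. Genes were kept by filterByExpr over the 6 groups, which left 17390 of 60671, and libraries were scaled by TMM. CPM values use the scaled library sizes. The averaged effect used setting as a block and 1 knockdown term. Effects in each setting, and their difference, came from 1 fit of 6 group means over all 18 libraries. Tests were 2-sided quasi-likelihood F tests with Benjamini-Hochberg adjustment over all genes tested and a threshold of 0.05. The fits were tested on simulated data. Positions come from GENCODE 29, and promoter windows from RefSeq (GRCh38.p14), matched by symbol for 12189 of 17389 tested symbols.

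The members and the 47 gene lists were chosen with earlier results of these data known, and 1 list, the tRNA synthetases, was added after values were seen. Named genes were the 3 targets; the 12 higher and 12 lower common genes of largest averaged change with a symbol and a mean of at least 5 CPM; the 5 with the smallest adjusted p for a difference between settings among genes of opposite calls; the 5 of most even effect; and up to 4 list members of smallest averaged adjusted p. Common genes outside this rule were named after their values were seen. Alternatives were DESeq2 1.42.0, RLE scaling, no low-count filter, GC and length trends removed, the mean of the group contrasts, each pair fitted alone, a replicate block, and leaving out each library and each pair. Replicate pairs differed by more than sampling noise in their counts.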

Additional observations from a re-analysis of the deposited data

Results flagged for a closer look

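The effect of knockdown differed between settings in 6048 of the 17390 genes tested, by the F test on the difference between the 3 contrasts. Since each setting had its own target gene, a difference between settings cannot be told apart from one between targets. Of the 36 genes named other than as list members 24 differed, and of the 126 named as list members 89 did.

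The targets differed, with adjusted p = 4.81e-25 for CARHSP1 and 2.01e-16 for ZIC2. Among the common higher genes of largest change, the adjusted p of the difference was 1.06e-10 for TAGLN, 2.26e-15 for ANXA1, 1.57e-05 for GCNT4, 3.56e-06 for ACTC1, 8.27e-05 for MYL9 and 3.58e-12 for ACTA1. It was 2.22e-14 for ATF5, 7.86e-22 for SPP1, 1.46e-11 for CDKN1A, 8.85e-18 for ANXA3 and 1.73e-15 for PCK2. In all of these except GCNT4 and PCK2, which had their largest log2 change in naive cells, the largest of the 3 changes was in ectoderm. Among the common lower genes it was 0.000855 for TMEM45A, 5.79e-09 for BNIP3, 1.26e-11 for LDHA, 9.72e-06 for BMP2, 2.32e-07 for PDK1 and 0.0342 for CDA. The genes of opposite change gave 9.70e-32 for TDGF1, 7.13e-30 for PKDCC, 3.55e-21 for SERPINB9, 1.46e-19 for FZD7 and 1.84e-19 for PDLIM1, which were chosen by this value.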

How the results depend on the processing

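The averaged counts of 922 higher and 894 lower genes were 2187 and 1797 as the mean of the group contrasts, 1813 and 1541 without the primed pair, and 608 and 565 without the naive pair. With a replicate block they were 431 and 400, and 110 higher and 82 lower genes were common. Deviations of same-numbered knockdown and control libraries correlated at 0.046 to 0.069 in primed cells and 0.019 to 0.105 in ectoderm. In naive cells they correlated at -0.072 to 0.035. Libraries of unlike number gave -0.050 to 0.0001 in primed cells, -0.091 to 0.048 in ectoderm and -0.137 to 0.122 in naive cells. Whether the numbers pair the samples was not tested. With GC and length trends removed, 145 genes were common higher, of which 85 were among the 93. NLRP7 averaged 0.67 (adjusted p = 0.354) as the mean of the group contrasts against -1.71. Leaving out each library in turn gave 738 to 990 higher and 695 to 872 lower genes on average, 67 to 101 and 54 to 75 common genes, 1276 to 2496 primed, 2236 to 3392 naive and 4077 to 5089 ectoderm genes, and 5253 to 5988 that differed between settings. The other alternatives kept these counts within 1.5 times: DESeq2 gave 1075 and 1210 averaged and 93 and 93 common genes. Without the low-count filter 1274 rose and 877 fell on average. Under all 24 alternatives for the common genes 42 higher and 29 lower ones stayed common. Depth limits genes at a few counts, such as ACTA1 and ANXA1 in ectoderm controls.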

Other observations

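Several common genes belong to none of the groups above. NEAT1, a long noncoding RNA of nuclear paraspeckles, had log2 changes of 1.19, 0.74 and 0.86 in primed cells, naive cells and ectoderm. ODC1, the first enzyme of polyamine synthesis, had 0.75, 0.36 and 0.73, and EPCAM, an epithelial adhesion protein, 0.34, 0.21 and 1.15. PEG10, an imprinted gene derived from a retrotransposon, had 0.40, 0.27 and 0.24. Among lower genes, the interferon-induced membrane protein IFITM1 had -0.60, -0.23 and -0.33, the histone demethylase KDM5B -0.23, -0.27 and -0.30, and the deacetylase SIRT1 -0.46, -0.21 and -0.24. PMEL, a melanosome protein, had -0.77, -1.20 and -0.51, and CRABP1, which binds retinoic acid in the cytoplasm, -0.83, -0.36 and -0.91. NEAT1 stayed common in 9 of 18 fits that left out a library, and was not common with each pair fitted alone. The genes of this paragraph were picked out after their values had been seen.

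ZIC2, the target in ectoderm, was also tested in the other settings. In naive cells with ZNF8 knockdown it was at 20.5, 24.6 and 23.8 CPM against 14.3, 13.2 and 11.5, a log2 change of 0.80 ± 0.10 (SE; adjusted p = 1.08e-07), while in primed cells its change of 0.09 ± 0.06 did not pass (adjusted p = 0.422).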
